A study of Saccharomyces cerevisiae with 59 samples.

Results

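The mitochondrial ribosomal protein genes of budding yeast were described across the cell cycle. Members were taken by name, as genes whose name begins with MRPL, MRPS or RSM followed by a digit. There were 53 of them among 5590 genes, with 33 named for the large subunit (MRPL) and 20 for the small subunit (9 MRPS and 11 RSM). They lay on 14 chromosomes, with 9 on chromosome IV, 8 on XIV and 7 on XIII. In the experiment, MATa cells of the W303 background, which carried ade2-1, BAR1::TRP, can1-100, his3-11,15, URA3::BrdU-Inc and a leu2 allele, were arrested in G1 with the mating pheromone α-factor and released into rich medium (YPD). All time points share this genotype. Samples were taken at the arrest (0 min) and at aligned times of 10 to 140 min in steps of 10 min, for RNA-seq (29 libraries) and for MNase-seq (30 libraries), in which an enzyme that cuts unprotected DNA leaves the fragments covered by nucleosomes and other factors. By the phases of the study, G1 fell at 10, 70 and 130 min, S phase at 20, 30, 80, 90 and 140 min, S/G2 at 40 and 100 min, G2/M at 50 and 110 min, and M at 60 and 120 min. The paper's text also places the first G1/S transition at 10 min.

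Mitochondria carry their own ribosome, which makes a handful of proteins encoded by mitochondrial DNA, mainly subunits of the respiratory chain and the ATP synthase. Its RNA comes from mitochondrial DNA, but nearly all of its proteins are encoded in the nucleus, made in the cytosol and imported. In S. cerevisiae, many of these nuclear messages are bound after their coding sequence by Puf3, an RNA-binding protein of the Pumilio family that acts on their decay, their translation and their location at mitochondria. The sequence that Puf3 binds has the core TGTANATA, in which N is any base, and often a C placed 2 bases before it.

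The RNA values were the authors' merged values, 1 per gene and time point, named TPM by them. That name stands for a value scaled by gene length, but the scaling of these values was not checked. The 110 min column rests on 1 library and each other RNA column on 2. No value of a single library was used, so no standard deviation between replicates and no test was possible, and all differences below are descriptions. Columns summed to between 949828 and 1041385 over all genes. The phases were checked with marker genes. The median RNA value of 6 G1/S genes was highest at 10 min (144) and at 70 min (124), that of 8 core histone genes at 20 min (2290) and 80 min (1712), and that of 5 G2/M genes at 50 min (117) and 110 min (89.0). At 130 and 140 min, the G1/S genes had 103 and 99.4 and the histone genes 805 and 1153. The phases of these 2 late points were thus less sharply marked than those of the first 2 cycles.

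A Puf3-type site lay within 200 bases after the stop codon in 52 of the 53 members (98.1%), against 824 of all 5590 genes (14.7%). The letters TGTANATA were searched on the coding strand of the R64 reference genome (RefSeq), which is the build of the tables but not the W303 sequence itself. On the other strand of the same window, the letters were found in 10 members (18.9%) and in 13.6% of all genes. The member without a site was RSM22, which encodes a methyltransferase-like protein of the small subunit. A single site was found in 40 members, 2 sites in 11, and 3 in RSM19, and these 65 sites had A at the N in 28 cases, T in 20, C in 16 and G in 1. A C stood 2 bases before 42 of the 65. Distances were counted from the first base after the stop codon to the first base of the site. The first site of each member began between 8 and 139 bases after the stop codon (median 54.5). In all 52 members, at least 1 site ended before the polyadenylation site given in the tables, and the second site of MRPL33 lay beyond it. Neither the C 2 bases before nor the place before the polyadenylation site was counted for the sites of other genes.

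The sites of the members on which the RNA results turn are printed as 30 bases of the coding strand, 5′ to 3′, with the site in capitals. They are those of MRPL39, which had the highest mean RNA (chrXIII:251207-251236, minus strand, 79 bases after the stop), MRPL40, the course most like the others (chrXVI:224133-224162, plus, 108 bases), MRPL49 with its first site (chrX:246977-247006, plus, 13 bases) and its second (chrX:247005-247034, plus, 41 bases), MRPS28, highest in the second against the first cycle (chrIV:1147197-1147226, plus, 29 bases), RSM7, the course least like the others (chrX:638192-638221, minus, 22 bases), and RSM19 with its first (chrXIV:695024-695053, minus, 10 bases), second (chrXIV:694996-695025, minus, 38 bases) and the third site (chrXIV:694968-694997, minus, 66 bases). MRPL3 is added for the G at the N of its first site (chrXIII:323054-323083, plus, 18 bases).
MRPL39: ttcatttatccTGTAAATAagtaatggata
MRPL40: tatattcgaccTGTATATAtgaaagcataa
MRPL49, first site: ttttagggataTGTACATAtacgcatacgt
MRPL49, second site: gtataaaatcaTGTAAATAacaataaaatt
MRPS28: gtagaaaagctTGTAAATAagaaaccgtca
RSM7: gtaaacttgccTGTACATAaacacatttat
RSM19, first site: gagggatctagTGTATATAgatttctagat
RSM19, second site: atgatatatcaTGTAAATAagatcaagcca
RSM19, the third site: cagactcgggcTGTATATAtatatatatat
MRPL3, first site: gtttgccatttTGTAGATAgagaactcctt
In this print, MRPL39, MRPL40, MRPS28, RSM7, the second MRPL49 site and the second RSM19 site carry the C 2 bases before the core.

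**Figure D1:**
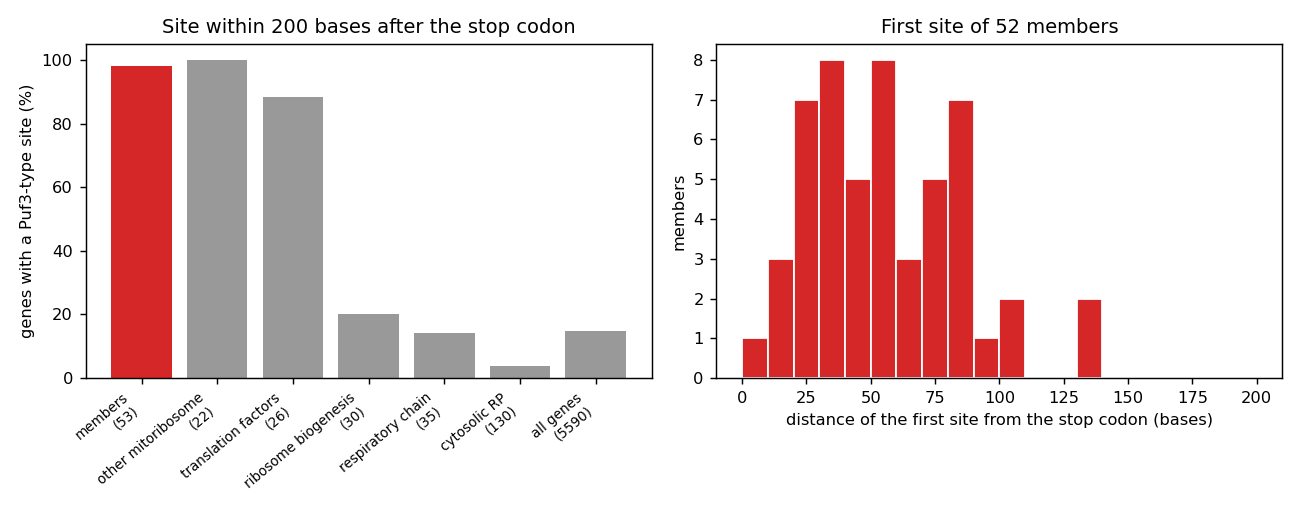
Left, percentage of genes with a Puf3-type site within 200 bases after the stop codon, for the members (red bar, 53 genes) and other gene lists (grey bars, number of genes in brackets). Right, number of members by the distance in bases from the stop codon to their first site, in bins of 10 bases. The members stand at 98.1% and all genes at 14.7%, and first sites began between 8 and 139 bases after the stop codon.

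The letter at the N differed between lists. TGTACATA was found in 16 of the 53 members (30.2%), against 1 of 22 mitochondrial ribosomal proteins with other names (4.55%), 2 of 26 mitochondrial translation factors and tRNA synthetases (7.69%) and 2.63% of all genes. TGTAAATA was found in 28 members (52.8%), in 14 of the 22 (63.6%), in 20 of the 26 (76.9%) and in 4.49% of all genes. The site as a whole was present in 22 of the 22, and in 23 of the 26. It was present in 5 of 35 genes of the respiratory chain and ATP synthase, in 6 of 30 ribosome biogenesis genes and in 5 of 130 genes of cytosolic ribosomal proteins. The members thus shared the site with the other genes of mitochondrial translation and not with most nuclear genes of the respiratory chain.

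All 53 members were expressed at middling levels. Their mean RNA value over the 15 time points had a median of 65.9, and 52 of them lay above the median of all genes (42.6). The lower and upper quartiles of the members were 56.2 and 91.4. The highest was MRPL39 (bL33 of the large subunit), which had 212 at the arrest and, at 10 to 140 min in steps of 10 min, 194, 176, 160, 137, 127, 153, 202, 171, 169, 154, 170, 156, 193 and 222. Next came MRPS12 (uS12, a protein of the decoding region) with a mean of 142 and MRPL33 (uL30) with 136. The lowest were RSM23 (43.5), the relative of human DAP3, MRPS5 (42.7), the uS5 protein, and RSM22 (30.6). RSM22 had 37.1 at the arrest and then 32.5, 29.0, 27.8, 25.6, 26.7, 28.2, 34.4, 29.8, 30.8, 29.8, 28.0, 29.8, 32.8 and 36.3. RSM22, the member without a site, stayed the lowest of the 53 in its mean, yet its values, like those of MRPL39, were lowest at 40 and 50 min and highest at the arrest and at 140 min. Large and small subunit members were alike in level, with medians of 65.6 and 67.9. Among other lists, the median was 65.4 for the mitochondrial ribosomal proteins with other names, 20.5 for the mitochondrial translation factors, 359 for the respiratory chain and 1645 for the cytosolic ribosomal proteins.

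The members moved together over the cycle. As deposited, their RNA was low at 30 to 50 min, was high at 70 and 130 min and was highest at 140 min. Each gene's log2(value + 1) was set against its own mean over 10 to 140 min. The median of the members was 0.02 at the arrest, and 0.14, 0.03, -0.16, -0.25, -0.27 and -0.05 at 10 to 60 min, 0.24, 0.03, 0.00, -0.09, -0.12 and 0.00 at 70 to 120 min, and 0.21 and 0.36 at 130 and 140 min. All 53 members lay below their own mean at 40 min and at 50 min, where 47.9% and 42.1% of all genes lay above theirs. All 53 lay above it at 140 min, against 58.4% of all genes. At 70 min, 45 lay above, against 60.8% of all genes. The highest of their 15 values fell at 140 min in 37 members, against 7.99% of all genes, and at 70 min in 9, against 11.6% of all genes. The lowest fell at 40 or 50 min in 46 members, against 14.7% of all genes. The range of a member between 10 and 140 min was small, with a median of 0.66 on the log2 scale (1.58-fold), beside 0.60 for all genes. As each value averages a culture, fewer cells in a phase and less RNA per cell cannot be told apart.

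Part of this course was shared by all genes. The median over 5442 genes with a mean RNA of at least 1 (all 53 members among them) was 0.15 above the genes' own mean at 10 min and 0.10 below it at 110 min, and the median level of all genes was 0.21 above its mean at 10 min. Relative to the median change of all genes, the members stood at -0.01 at 10 min, -0.20, -0.25 and -0.24 at 30, 40 and 50 min, 0.19 at 70 min, -0.05 and -0.02 at 100 and 110 min, and 0.21 and 0.32 at 130 and 140 min. On this scale all 53 were below their mean throughout 30 to 50 min, and 44, 51 and 53 of them exceeded it at 70, 130 and 140 min. The median of all genes is 0 at each time point of this scale by construction. When each time point was instead centred on the median level of all genes, the members stood at -0.06 and -0.21 at 10 and 40 min, and at 0.20 and 0.31 at 70 and 140 min. The low values at 30 to 50 min and the high ones at 70, 130 and 140 min were present on each scale, and the high value at 10 min was absent from both centred scales.

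**Figure D2:**
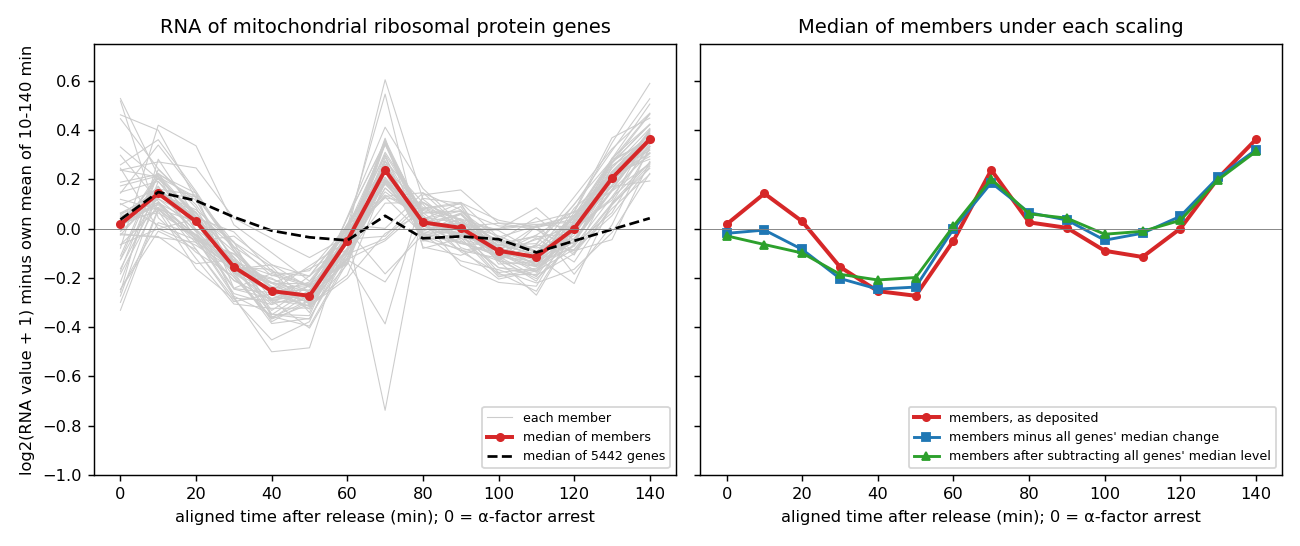
Left, RNA of the 53 members (grey lines) with their median (red) and the median of 5442 genes (dashed), as log2(RNA value + 1) minus each gene's mean over 10 to 140 min, against aligned time after release in minutes. Right, the members' median as deposited (red), minus the median change of all genes (blue) and after subtraction of the median level of all genes (green). The members' median is lowest at 40 and 50 min and highest at 140 min (0.36 as deposited), and the value at 10 min is 0.14 as deposited but -0.01 and -0.06 on the centred scales.

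MRPL49, the bL21 protein of the large subunit, showed the course at its largest. Its RNA value was 77.7 at the arrest, 113, 96.3, 76.7, 65.6, 66.3 and 92.0 at 10 to 60 min, 142, 101, 93.0, 82.2, 83.2 and 88.8 at 70 to 120 min, and 111 and 122 at 130 and 140 min. It was thus high in each G1 after release (10, 70 and 130 min), but not at the arrest, and low in each S/G2 and G2/M. MRPL40 (uL24), whose course was most like that of the other members, had 51.8 at the arrest, then 56.8, 51.3, 43.9, 38.9, 40.6 and 46.5, then 61.9, 51.4, 49.4, 47.8, 46.0 and 51.8, and then 60.9 and 68.1. MRPS35, a small subunit protein particular to mitochondria, had 71.4 at the arrest, then 76.4, 72.5, 61.0, 57.8, 56.1 and 65.4, then 81.9, 69.6, 72.3, 64.5, 61.1 and 70.7, and then 78.0 and 89.9. In these 2 members, as in MRPL49, the first trough was deeper than the second.

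The G1 time points were set against the S/G2 and G2/M time points that follow or precede them, a comparison chosen after the course was seen. In cycle 1, 10 min was set against 40 and 50 min. The members differed by a median of 0.41 on the log2 scale, and 44 of 53 were over 25% higher in G1, against 33.9% of all genes. All 53 were higher by some amount, against 68.8% of all genes. In cycle 2, with 70 min set against 100 and 110 min, the members differed by 0.34, with 30 members over 25% higher (21.4% of all genes) and 2 over 20% lower (9.1% of all genes). At the third G1 (130 min against the same 100 and 110 min), it was 0.30, with 22 members over 25% higher (14.9% of all genes). In 26 members the difference passed 25% in both cycle 1 and cycle 2, against 12.7% of all genes. After subtraction of the median change of all genes, the medians were 0.24, 0.22 and 0.23, with 12, 8 and 10 members over 25% higher (21.5%, 12.2% and 10.7% of all genes). These shares were close to those of all genes in the first 2 comparisons. When centred on median levels, cycle 1 gave 0.14, and 4, 8 and 8 members were over 25% higher, against 16.6%, 12.2% and 9.7% of all genes, so that in cycle 1 the members' share was below that of all genes. The members thus shared a direction in larger part than all genes did. After subtraction of the median change, 53, 45 and 51 were higher in the 3 comparisons, against 48%, 50.1% and 49.5% of all genes. Centred on median levels, 48, 44 and 50 were higher, against 38.8%, 50.0% and 44.8% of all genes.

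The other genes of mitochondrial translation and those of the respiratory chain gave like medians, and cytosolic ribosomal proteins did not. These values are as deposited, without centring. On that scale all genes had medians of 0.15, 0.12 and 0.06 in the 3 comparisons, with 33.9%, 21.4% and 14.9% over 25% higher. The mitochondrial ribosomal proteins with other names had medians of 0.38, 0.34 and 0.28 in the 3 comparisons, and 14, 13 and 5 of 22 over 25% higher. The mitochondrial translation factors and synthetases had 0.35, 0.22 and 0.27, with 14, 6 and 11 of 26 higher. The respiratory chain and ATP synthase, most of whose genes had no site, had 0.29, 0.48 and 0.29, with 16, 30 and 14 of 35 higher. Ribosome biogenesis genes had -0.06, 0.24 and -0.33, and cytosolic ribosomal proteins -0.53, 0.12 and -0.16. Among genes that are not members, those with a site had medians of 0.24, 0.14 and 0.12 (767 genes) and those without one 0.13, 0.12 and 0.05 (4622 genes). Members with TGTAAATA (28 genes) had 0.44, 0.34 and 0.32, and members without it (25 genes) had 0.35, 0.34 and 0.28. PUF3 itself had 39.6 at 10 min against 30.1 and 29.1 at 40 and 50 min, and 36.1 at 70 min and 27.3 at 130 min against 24.7 and 25.1 at 100 and 110 min. At 140 min, where the members were highest, PUF3 was near its lowest value, that of 100 min.

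**Figure D3:**
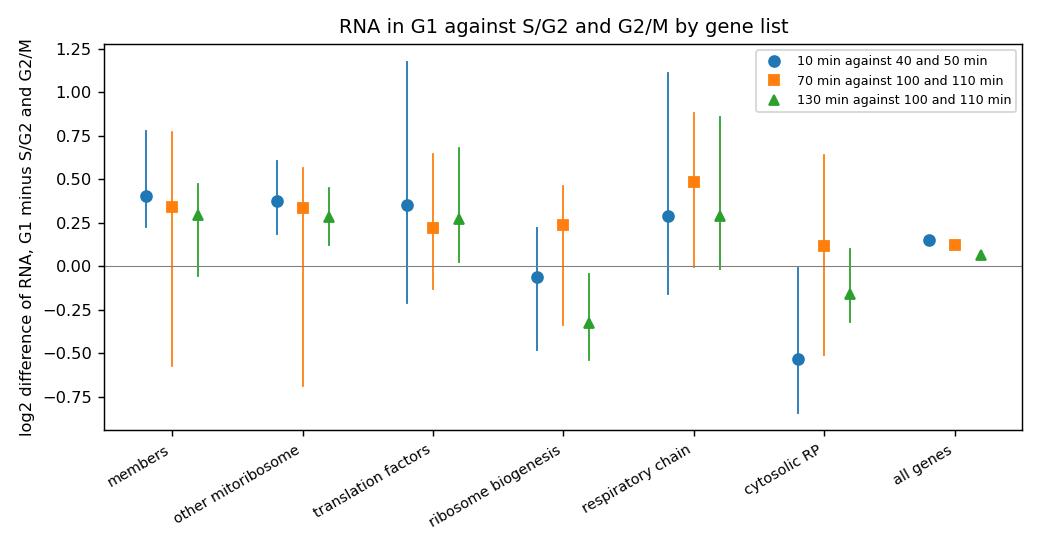
RNA difference between G1 and S/G2 with G2/M (log2, y axis) for the members and other gene lists (x axis), in cycle 1 (circles), cycle 2 (squares) and at the third G1 (triangles, which shares its S/G2 and G2/M time points with cycle 2). Symbols are medians over the genes of a list and lines run from the lowest to the highest gene, with no line for all genes. The members' medians are 0.41, 0.34 and 0.30, and those of cytosolic ribosomal proteins -0.53, 0.12 and -0.16.

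The likeness of the courses was measured as Pearson's r over the 15 time points between a member and the median course of the other members. These points share their libraries, and r is given as a description. The median r was 0.89, and 45 of 53 members reached 0.8, as did 3.53% of all genes against the median course of the members. The highest were MRPL40 (0.99) and MRPS35 (0.98), and the lowest RSM7 (0.23) and RSM19 (0.50). Outside the members, the 3 genes most like them were MRP7 (0.98), a large subunit protein, BCS1 (0.98), an ATPase needed to assemble respiratory complex III, and NAM9 (0.97), a small subunit protein, and each of the 3 had a site. MRP7 had 84.9 at the arrest, then 93.6, 88.1, 72.1, 67.3, 68.9 and 78.2, then 101, 85.2, 86.2, 81.6, 79.1 and 87.5, and then 98.2 and 106. Of the 30 genes most like the members, 25 had a site, against 13.9% of all genes outside the members. Among the 30, 10 were mitochondrial ribosomal proteins with other names and 3 were mitochondrial translation factors or synthetases. These lists hold 22 and 26 genes, of which 22 and 23 had a site. The count of 25 thus in part repeats membership of these lists.

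RSM7 (uS7) and RSM19 (uS19), proteins of the head of the small subunit, departed from this course. RSM7 had 61.5 at the arrest, then 87.4, 82.4, 65.8, 60.7, 56.0 and 64.4, then 38.6 at 70 min, then 68.8, 69.8, 59.5, 56.4 and 62.3, and then 75.5 and 79.9. Its lowest value thus fell at 70 min, where 45 members lay above their mean, while its values at 40 and 50 min were among its lower ones and those at 130 and 140 min among its higher ones. MRPS12 had 144.6 at the arrest, then 152, 139, 124, 117, 116 and 127, then 107 at 70 min, then 154, 156, 142, 141 and 142, and then 169 and 193. RSM19, the gene next upstream of MRPS12 (229 bases away), had 115.0 at the arrest, 68.2 at 70 min and 80.0 at 80 min. A value at 70 min below those at both 60 and 80 min was seen in 5 members (RSM7, MRPS12, MRPL28, RSM19 and MRPL20), against 16.5% of all genes. With both neighbours over 25% higher, it was seen in RSM7 alone, against 3.09% of all genes. IMG1, a large subunit protein outside the rule, had 54.1, 39.5 and 69.0 at 60, 70 and 80 min. These members were singled out after their values were seen.

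**Figure D4:**
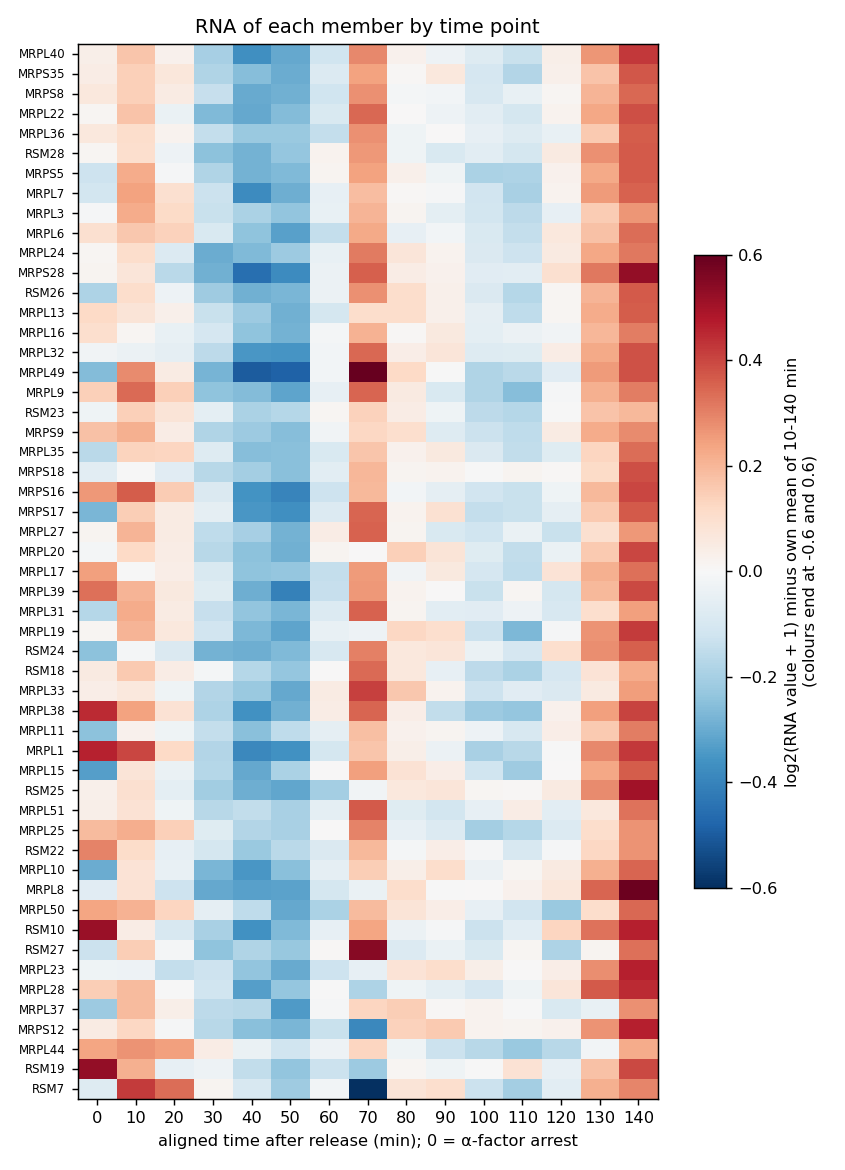
RNA of each of the 53 members (rows, ordered from the course most like the others at the top to the least like at the bottom) at each aligned time in minutes (columns), as log2(RNA value + 1) minus the gene's mean over 10 to 140 min. Blue is below and red above that mean, and the colours end at -0.6 and 0.6. All members are below 0 at 40 and 50 min and above 0 at 140 min. At 70 min 8 members are below 0, among them RSM7 and MRPS12 in the lower rows.

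At the α-factor arrest, members were neither high nor low as a group. The median difference of the arrest from 10 to 140 min was 0.02, with 5 members over 25% higher and 1 over 20% lower, against 32.7% and 27.2% of all genes. Both counts were smaller shares than those of all genes. The highest were RSM19 (0.53), RSM10 (0.52), the uS10 protein, and MRPL1 (0.46), the uL1 protein. RSM10 had 96.8 at the arrest, against 93.5 at 140 min and a lowest value of 52.0 at 40 min. MRPL1 had 63.4 at the arrest, against 34.8 at its lowest (40 min) and 61.7 at 140 min. The lowest were MRPL15 (-0.33), a large subunit protein with an RNase III-like fold, MRPL10 (-0.30), the uL15 protein, and MRPS17 (-0.27), the uS17 protein. MRPL15 had 48.8 at the arrest, below each of its later values, of which the lowest was 49.6 (40 min) and the highest 79.5 (140 min). The mitochondrial ribosomal proteins with other names were as near to 0 (0.00), with 1 of 22 over 25% higher and 0 over 20% lower. Some other lists moved further. Ribosome biogenesis genes had a median of -1.24 and cytosolic ribosomal proteins of -0.55, and the respiratory chain genes had 0.33.

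The second cycle was slightly higher than the first. The mean over 70 to 120 min was above that over 10 to 60 min in 50 of 53 members, against 32.6% of all genes, with a median difference of 0.11 (all genes -0.07). No member was over 25% higher or over 20% lower, against 3.4% and 10.3% of all genes. The largest values were those of MRPS28 (0.27), the uS15 protein, RSM24 (0.24) and MRPL32 (0.22), the bL32 protein whose maturation in the mitochondrion precedes its assembly. MRPS28 had 61.5, 49.3, 48.5, 45.5, 45.7 and 51.1 at 70 to 120 min, against 50.2, 42.5, 38.9, 34.6, 36.5 and 46.5 at 10 to 60 min, so that each time point of the second cycle lay above its counterpart in the first. The 3 lowest were RSM7 (-0.23), MRPL44 (-0.16) and MRPL25 (-0.04).

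In S phase the members' RNA lay near the mean of the other phases, and in cycle 1 slightly below it once centred. S phase minus G1, G2/M and M gave medians of 0.00 in cycle 1 and -0.02 in cycle 2, with 0 and 1 members over 25% higher (10.3% and 4.12% of all genes). After subtraction of the median change of all genes, the medians were -0.06 and -0.01, with 9 and 24 members higher, against 49.9% and 51.7% of all genes. Centring on median levels also gave 9 of 53 in cycle 1 (51.1% of all genes). The S phase medians of cycles 1 and 2 lay between the high G1 and the low G2/M medians of the same cycle, while that of 140 min (0.36), which is also S phase, lay above each G1 median. Without 10 min the cycle 1 median was 0.11, and without 50 min it was -0.11. By the smaller of the 2 cycles, the values ran from -0.21 (MRPL51), -0.18 (RSM27) and -0.14 (MRPL24) up to 0.06 (MRPL35), 0.11 (MRPL50) and 0.11 (RSM7).

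The time course of gene-body entropy in the members was broadly like that of other genes. Entropy is the Shannon entropy of the nucleosome signal over a gene body, higher where nucleosomes are less well ordered, and was standardized within each gene to z-scores. Its median over members was lowest at the arrest (z of -1.24), and 0.58 and 1.42 at 20 and 30 min. It was -0.85 at 60 min, 0.76 at 90 min and -0.46 at 130 min. In S phase of cycle 1 it was higher than in G1, G2/M and M in 53 of 53 members, against 93.4% of all genes, with a median z difference of 1.55 (all genes 1.37). In cycle 2 it was higher in 46 of 53, against 91.9% of all genes, with a median of 0.80 (all genes 0.96). It was higher in the first S phase and lower in the second in 7 members, against 5.71% of all genes. The highest of the 15 values fell at 20 min in 9 members and at 30 min in 29, against 21.5% and 37% of all genes. By the smaller of both cycles, RSM24 (1.68), RSM26 (1.65) and MRPL38 (1.56) had the largest differences. RSM24 had z-scores of 1.21 and 1.42 in the first S phase (20 and 30 min) and of 1.19 and 1.37 in the second (80 and 90 min), against values of 0.53 at 10 min, -0.99 at 50 min, -0.65 at 60 min, -0.19 at 70 min, -0.75 at 110 min and -0.98 at 120 min. MRPS16 (-0.62), MRPL15 (-0.30) and MRPS5 (-0.25) had the smallest. The mean entropy of the members was low, with 40 of 53 below the median of all genes. They were also short, with a median coding length of 699 bp against 1226 bp for all genes, and the part of gene length in the entropy was not tested.

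**Figure D5:**
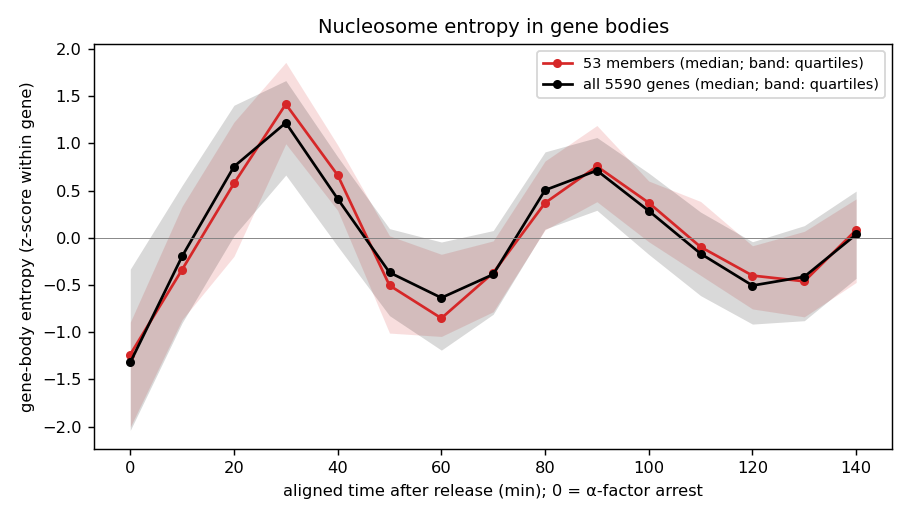
Gene-body nucleosome entropy as a z-score within each gene (y axis) against aligned time after release in minutes, for the 53 members (red) and all 5590 genes (black). Lines are medians and bands run from the lower to the upper quartile. The members' median is 1.42 at 30 min and 0.76 at 90 min, beside 1.22 and 0.71 for all genes.

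The gene-body nucleosome score of the members changed little. Its median log2 ratio was -0.02 at the arrest, 0.04 in the second against the first cycle, and -0.01 and 0.00 in the S phases, beside 0.01, 0.02, -0.01 and -0.02 for all genes. At the arrest 5 members were over 1.1-fold higher and 14 over 1.1-fold lower, against 19.9% and 19.8% of all genes.

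The promoter score is, by its name, a score of fragments shorter than nucleosomal ones before the gene, but its making is not described in the sources used here. It is the table whose sum over genes changed most with time, between 118.8 and 157.2, so values are given beside those of all genes. Its median in members was at percentile 58.6 of all genes. At the arrest the members' median log2 ratio was 0.25 (all genes 0.19), with 18 members over 25% higher, against 28% of all genes. The highest mean scores were those of RSM7 (0.0781) and MRPL15 (0.0651), and the lowest those of MRPL27 and MRPS8 (0.00777 each). RSM7 had 0.0780 at the arrest and between 0.0670 and 0.0945 later, and MRPL27 had 0.00765 at the arrest and between 0.00505 and 0.0104 later, on either side of the median of all genes, which was 0.0263 at the arrest and between 0.0191 and 0.0253 later. At 70 min, where its RNA was lowest, the RSM7 promoter score was 0.0756, and those at 60 and 80 min were 0.0678 and 0.0746. The median of all genes was 0.0238 at 70 min, and 0.0216 and 0.0226 at 60 and 80 min.

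The 250 bases before the annotated start of transcription were searched on both strands for letters bound by known promoter factors. A match to the motif of Abf1, a general regulatory factor, was found in 9 members (17.0%) and in 11.8% of all genes. TTACCCG, bound by the general regulatory factor Reb1, was found in 8 members (15.1%) and in 9.27% of all genes. AATTTTT was found in 8 members (15.1%), against 30.3% of all genes, and ACGCGT, bound by the G1/S factor MBF, in 0 members and in 3.7% of all genes. CCAAT was the most frequent in members, with 15 (28.3%), against 35.4% of all genes. GATGAG was found in 10 members (18.9%, all genes 18.0%) and GGTGGCAAA in 0 (all genes 1.36%). Neither RSM7 nor MRPL15, with the highest promoter scores, had an Abf1 or TTACCCG match, while MRPL27, one of the lowest, had an Abf1 match. The 9 members with an Abf1 match lay between percentile 5.15 (MRPL27) and percentile 92.4 (MRPS16) of the promoter scores of all genes. A neighbour transcribed away from the same intergenic region stood upstream of 30 members (56.6%, all genes 51.4%), and the median gap to the upstream gene was 306 bp (all genes 446 bp). No promoter motif searched thus came near the share of members that had the downstream site.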

How the data were processed

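The authors aligned reads to the R64 (sacCer3) genome, and the submitters' processing notes name Bowtie 0.12.7. They aligned the samples of 2 replicates by cell-cycle progression and merged them, and the labels give Replicate 1 times after release 10 min later than aligned times. For 1 MNase-seq library at 10 min the labels conflict, and it was placed by its time. The 4 tables hold scores deposited by the authors: RNA (named TPM), gene-body entropy, gene-body nucleosome score and promoter subnucleosome score. How the promoter score was made and scaled is not given in the sources used here. Depth per gene is unknown. The number of unmapped columns was 0.

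RNA was compared as log2(value + 1) with calls over 25% higher or 20% lower among 5442 genes with a mean of at least 1, scores as log2 ratios of means, with calls past 1.1-fold for the nucleosome score and 25% higher or 20% lower for the promoter score, and entropy as z-scores. Gene positions in the tables matched the R64 annotation for 5579 of 5590 genes and for all 53 members. Of 54 annotated names that fit the rule, 1 was not analysed here. Genes named were the 3 highest and 3 lowest in mean RNA and in each planned RNA and entropy comparison, the 2 highest and lowest in promoter score and in likeness of course, and the 3 genes outside the members with the most similar course. Others were named after their values were seen. Members and lists were chosen with earlier results of these data known. Alternatives were other pseudocounts, centring, folds, backgrounds, windows and single time points left out. Python 3.11.15, numpy 2.4.6, pandas 2.3.3 and matplotlib 3.10.9 were used, and the scripts were tested on simulated data.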

Additional observations from a re-analysis of the deposited data

Results flagged for a closer look

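In 7 members, gene-body entropy was higher in the first S phase and lower in the second than in G1, G2/M and M of the same cycle, against 5.71% of all genes. The second-cycle z differences were -0.2501 in MRPS5, -0.0132 in MRPL37, -0.0591 in MRPL6, -0.2983 in MRPL15, -0.1509 in MRPS17, -0.6182 in MRPS16 and -0.2357 in MRPL51. No test of this contrast between cycles was made, since each cycle has 1 merged value per time point. In MRPS16 the highest z-score was at 130 min (1.71), and in MRPL15 at 140 min (1.72).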

How the results depend on the processing

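Of 256 alternative values for 35 results, 234 kept within 0.1 on the log2 scale or 1.5 times a count or share, and 22 moved. A change of direction was looked for only in medians past the fold call, and 0 were found. Among differences between time points, only the G1 medians of cycles 1 and 2 were past it. The other differences could therefore not count as changed in direction. No paired analysis was possible because each column merges the replicates, and leaving out a replicate was not run for the same reason. The G1 comparisons and their alternatives were chosen after seeing the data. Past a fold of 1.5, members higher numbered 0 at the arrest, and 4, 2 and 0 in G1 of cycle 1, cycle 2 and the third G1, against 21.6%, 16.8%, 7.11% and 5.05% of all genes. Centring on the median level of all genes gave G1 medians of 0.14 and 0.22 in cycles 1 and 2, and 4, 8 and 8 members over 25% higher, against 16.6%, 12.2% and 9.7% of all genes. It gave a range of 0.52 for the median course (0.64 as deposited), and placed the highest median of 10 to 60 min at 60 min, the lowest at 40 min, and the lowest of 70 to 120 min at 100 min. With a pseudocount of 10, 13 members were over 25% higher at the third G1, against 9.1% of all genes. Leaving out 1 time point at a time gave -0.11 to 0.11 for the S phase median of cycle 1, and 0.51 (without 140 min) to 0.64 for the range of the course. Promoter scores divided by the median of all genes gave 0.029 at the arrest and -0.033 in the second against the first cycle, against 0.25 and -0.14. TGTAAATA alone was found in 52.8% of members, and TGTANATA in 88.7% within 100 bases and 98.1% within 300 bases. Synchrony, depth and replicate spread limit all values and could not be measured from merged columns.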
